A study of Homo sapiens with 12 samples.

Results

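The genes described here encode the proteins of the cytosolic ribosome. They were taken by symbol: RPL or RPS followed by digits, with an A, AL, L, X or Y suffix (with or without a number after it), together with RPLP0, RPLP1, RPLP2 and RPSA. Pseudogenes, hyphenated symbols and the RPS6K kinases were left out. The platform annotation gave 61 such genes among 19775 genes named by a probe set of their own, 39 of the large subunit and 22 of the small subunit. Each gene is represented by its brightest probe set (a group of short probes for one transcript) over the 12 arrays. A further 15 symbols, among them RPL5 and RPL10, were carried only by probe sets annotated to several genes and were not used. RPLP0, RPSA and RPL26 were not analysed here.

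The arrays come from 3 human soft tissue sarcoma lines. A-204 is given as a rhabdomyosarcoma in the labels, SK-LMS-1 as a leiomyosarcoma, and VA-ES-BJ as an epithelioid cell sarcoma. Cells were left untreated, given taurolidine at 250 µmol/l, given TRAIL at 50 ng/ml, or given both for 6 h. Taurolidine is an antimicrobial derived from taurine, and TRAIL is a ligand of the death receptors that start apoptosis. There was 1 array for each line and treatment, so the 3 lines are the only replicates of a treatment. Each line is a single established culture. The p-values of treatment comparisons measure how much the treatment differences vary between lines. Where lines are compared, the treatments of a line stand in for replicates.

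A ribosome joins a small subunit, which reads the mRNA, to a large subunit, which forms the peptide bonds. Its proteins are made from very abundant mRNAs, most of which start with a cytosine followed by a run of pyrimidines, the 5′ terminal oligopyrimidine or TOP motif. This motif places their translation under mTOR through the binding protein LARP1. Several ribosomal proteins have a paralogue, a second gene for a closely related protein that is often used in few tissues. Some have duties outside the ribosome, such as RPL11, which binds MDM2 and so stabilises p53.

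Of the 61 genes, 53 were matched by symbol to a RefSeq promoter (GRCh38.p14, 250 bases before to 50 bases after the annotated start). A run of at least 7 pyrimidines (C or T, on the gene's strand) within 5 bases of the start was found in 41 of the 53, or 77.4%, against 19.2% of 27305 genes with a promoter and 16.4% of 67 mitochondrial ribosomal protein genes. The letters CGGAAG, the core that ETS family factors recognise, were found on either strand in 67.9% of the 300-base promoters, against 22.6% of all promoters. The mitochondrial ribosomal protein genes had them in 55.2%, so these letters are not particular to the cytosolic genes. TATAAA was found on either strand in 9.43%, against 14.0% of all promoters and 4.48% of the mitochondrial ribosomal protein genes. These matches describe letters in a window and were not tested. The 30 bases around the start are shown for genes on which the results below turn, to set paralogues beside their partners, with the pyrimidine run in capitals and the start in the middle.

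RPS6, chr9:19380222-19380251, minus strand: aagcggaagttggCCCTCTTTTCCgtggcg
RPL36, chr19:5690280-5690309, plus strand: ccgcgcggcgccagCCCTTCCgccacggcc
RPS9, chr19:54200843-54200872, plus strand: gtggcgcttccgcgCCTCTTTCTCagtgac
RPL22, chr1:6199581-6199610, minus strand: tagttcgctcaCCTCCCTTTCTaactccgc
RPL22L1, chr3:170870181-170870210, minus strand: cgcggccgtagCTTCCTCTCTgctctcgcg
RPS27, chr1:153990747-153990776, plus strand: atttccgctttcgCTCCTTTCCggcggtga
RPS27L, chr15:63157463-63157492, minus strand: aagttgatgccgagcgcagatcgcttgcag
RPL26L1, chr5:172958714-172958743, plus strand: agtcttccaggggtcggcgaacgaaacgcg
RPL7L1, chr6:42879601-42879630, plus strand: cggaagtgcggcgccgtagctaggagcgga

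RPS6, RPL36, RPS9, RPL22 and RPS27 carry a run of 7 to 11 pyrimidines at the start. RPL22L1 carries a run of 10 bases, as its partner RPL22 carries one of 11. No run was found at the start of RPS27L, RPL26L1 or RPL7L1, nor at that of RPL10L, RPL3, RPL12, RPS4X and 5 other genes.

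The probe sets of these genes were among the brightest on the arrays. The mean signal exceeded 30000 for 50 genes (highest 62084) and lay between 10000 and 30000 for 4, RPL22L1, RPS27L, RPL26L1 and RPL7L1, against a median of 137 over all probe sets. Probe sets of 51 genes were in the top 1% of the array by mean, 48 of them on every array. Signals under 2000 were found for 7 genes, RPL39L (1917), RPL10L (690), RPL27A (640.3), RPL36A (219), RPLP2 (181), RPL3L (24.2) and the Y-linked RPS4Y1, whose levels are not given. RPL3L, a muscle paralogue of RPL3, was the only gene below the filter on low values, which left 60 for testing. Signals of different probe sets are brightness, not amounts that can be set against each other.

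The lines were checked against markers of their labels. KRT19 was between 16189 and 19459 on the VA-ES-BJ arrays and at or below 125 on all others, and SMARCB1, whose loss marks epithelioid sarcoma, was at or below 262 there and at least 1018 elsewhere. KRT8 and KRT18 were also highest in VA-ES-BJ, but EPCAM was 130 to 210.2 there and 1727 to 2374 in A-204. TAGLN and CNN1, smooth muscle genes, were highest in SK-LMS-1, but MYH11 and DES were at most 206 in every line. ACTA2, of the same list, went the other way, from 1335 to 2077 in SK-LMS-1, from 1667 to 2317 in A-204 and from 4737 to 6204 on the VA-ES-BJ arrays. Myogenic factors MYOD1, MYOG and MYF5 were under the table median on every array, those of A-204 included, so the defining markers of its labelled origin were absent. The summed signal of PTPRC, CD3E and CD14, leukocyte markers, was between 116 and 322 on every array.

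The VA-ES-BJ array given TRAIL alone had the highest levels of the ribosomal protein genes in its line. It is called below the array that stood apart. The median signal of the 54 genes with a mean over 10000 was 56621 there, against 35727 in untreated VA-ES-BJ cells, 47215 with taurolidine and 48751 with both agents. All 54 were higher than in the untreated cells of that line, by 0.28 to 0.87 on the log2 scale (median 0.67, or 1.59-fold). The other 1171 genes with a mean over 10000 had a median difference of 0.25 between the same arrays. In A-204 the corresponding TRAIL difference of the 54 genes had a median of 0.02 (50777 against 50478), and in SK-LMS-1 a median of 0.02 (40432.5 against 39187). The log2 ratio of the 3′ to the 5′ GAPDH control was 0.046 on this array and between -0.117 and -0.021 on the other 11, and its part in the result was not tested. The same ratio for ACTB was 0.196, inside the range of the others (0.062 to 0.214). The main counts of genes passing are given below with this array and without it, the latter chosen after its levels were seen. The array was picked for its high levels of these same genes and had no taurolidine. Leaving it out therefore raises their taurolidine difference, so counts and p-values without it are description and not support. The untreated array of that line was low in turn. Taurolidine minus untreated had a median of 0.42 over the 54 genes there, and both agents minus TRAIL alone one of -0.23. Which of these arrays is unusual cannot be told with 1 array for each line and treatment. Without the TRAIL array, the low untreated array is the only VA-ES-BJ array without taurolidine.

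**Figure D1:**
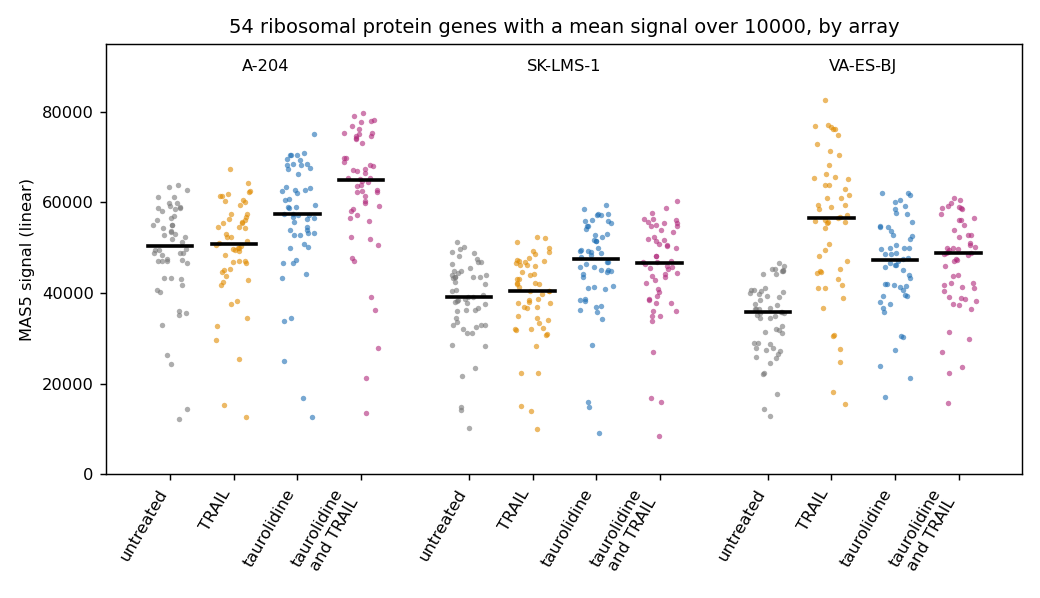
MAS5 signal (linear axis from 0) of the 54 ribosomal protein genes with a mean over 10000, 1 point per gene and array, with the median as a bar, for 3 lines and 4 treatments. The medians rise from 50478 untreated to 64944 with both agents in A-204, and the TRAIL array of VA-ES-BJ (56621) lies above every other array of that line.

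With taurolidine the ribosomal protein genes as a group lay slightly higher. Comparing the 6 arrays with taurolidine to the 6 without, each within its line, 58 of 60 genes had a difference above 0 and the median was 0.21 on the log2 scale, against 0.04 and 53.9% above 0 over the 14221 genes tested. A-204 had a median of 0.27, SK-LMS-1 one of 0.24 and VA-ES-BJ one of 0.09. By limma's test, with Benjamini-Hochberg adjustment over all genes and a threshold of 0.05, 8 of 60 genes (13.3%) passed as higher and 0 as lower, with 16 at an unadjusted p under 0.05. Over all genes tested 34.6% passed, 16.6% as higher and 18.1% as lower, so the share of ribosomal protein genes that rose was near the background. The other 1171 genes with a mean over 10000 had the same median, 0.21, with 499 higher and 29 lower.

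Without the VA-ES-BJ array given TRAIL alone, 49 of the 60 genes passed, all higher, with a median of 0.29, while 16.1% of all genes passed as higher and 16.8% as lower. This rise follows in part from how the array was picked, and the count is not set against the other bright genes here. In A-204 both taurolidine arrays lay above both others for 55 of 60 genes, and in SK-LMS-1 for 56, but in VA-ES-BJ for 6. The share of all genes was not computed for single lines, so these counts do not set the ribosomal protein genes apart from other genes. All 3 lines showed this separation for 5 genes (8.33%), RPL36, RPL26L1, RPS27L, RPL10L and RPL14, against 14% of all genes, and 0 genes lay lower in all 3 lines, against 15.1%.

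The direction depended on the scaling. The deposited arrays share a common trimmed mean, and the 27 probe sets for poly-A spikes, bacterial transcripts added to the RNA, were 0.59 ± 0.11 (SD over 3 lines) higher with taurolidine. Setting these spikes equal moved the median of all genes by -0.59, to -0.55. The median of the ribosomal protein genes then became -0.38, with 53 lower and 0 higher, where 68.9% of all genes passed. Under quantile normalisation it was 0.04 against 0.08 for all genes, with 5 higher and 1 lower, where 35.2% of all genes passed. The higher values below are therefore relative to the array mean, and 7 of the 8 genes that passed lay below 0 with the spikes set equal. The eighth, RPL10L, then had a difference of 0.02.

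**Figure D2:**
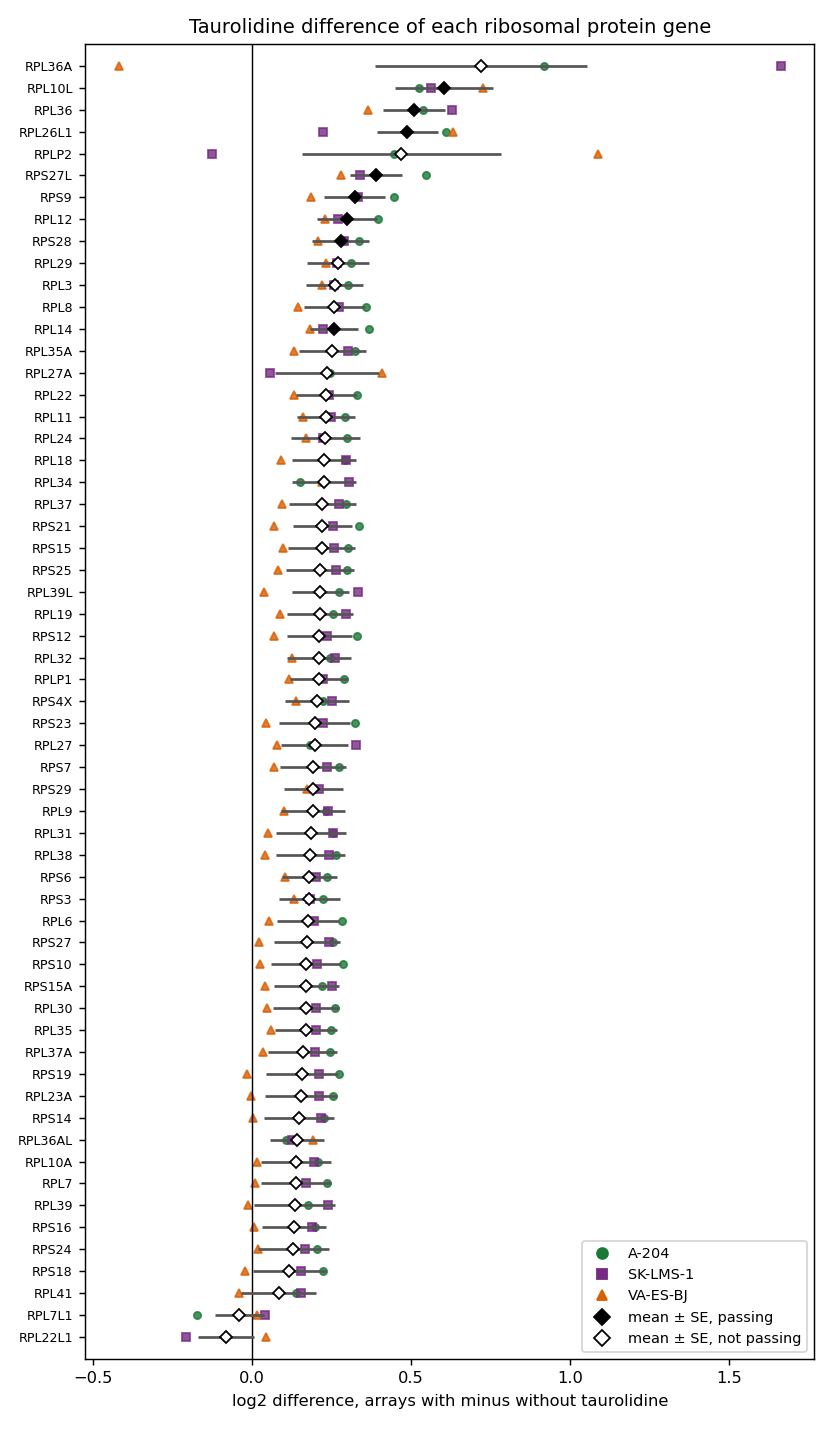
Log2 difference between arrays with and without taurolidine for 59 ribosomal protein genes (diamonds, mean ± SE from limma, filled where the adjusted p passed 0.05) and within each line (coloured symbols, mean of 2 arrays minus mean of 2). Most diamonds lie between 0.1 and 0.3, VA-ES-BJ is the lowest of the lines for most genes, and RPL22L1 and RPL7L1 are the only ones below 0.

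RPL36, a protein of the large subunit, had the smallest adjusted p. In A-204 its signal was 36027 untreated, 38230.3 with TRAIL, 49949.5 with taurolidine and 58029.7 with both. The SK-LMS-1 arrays gave 23474, 22298, 36947 and 33852 in the same order, and those of VA-ES-BJ 25771, 36616, 37905 and 41194. Both taurolidine arrays were above both others in each line, narrowly in VA-ES-BJ, where TRAIL alone was also high. The difference was 0.51 ± 0.10 (SE; adjusted p = 0.00594), or 1.42-fold.

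RPL26L1 encodes a protein nearly identical to RPL26. Its signal in A-204 was 12154 untreated, 12617 with TRAIL, 16832 with taurolidine and 21254 with both. It was 14088, 13842, 15887 and 16753.5 for SK-LMS-1, and 12762, 15482, 21141 and 22428 for VA-ES-BJ. The groups did not overlap in any line, and the rise was smallest in SK-LMS-1 (0.22, where A-204 had 0.61 and VA-ES-BJ 0.63). The difference was 0.49 ± 0.10 (adjusted p = 0.00664).

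RPS27L is a paralogue of RPS27 known as a p53 target. The A-204 arrays gave 24328 untreated, 25412 with TRAIL, 33709.5 with taurolidine and 39213.5 with both. Signals were 21706, 22243, 28573 and 27018 for SK-LMS-1, and 22203, 27633, 30308 and 29847 for VA-ES-BJ. Taurolidine arrays were the higher pair in every line on this probe set, with a difference of 0.39 ± 0.08 (adjusted p = 0.00856). Dimmer probe sets of RPS27L (means 1334 and 948) had differences of 0.31 and 0.42. They did not pass in a fit over probe sets, and had only 0.05 and 0.09 in SK-LMS-1. RPS27 itself, from 39617 to 67060.2 over the arrays, had a difference of 0.17 that did not pass.

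RPL10L, a copy of RPL10 without introns that is known from testis, was dim. Its signal in A-204 was 597 untreated, 523 with TRAIL, 902 with taurolidine and 726 with both. The SK-LMS-1 values were 974, 532, 1123 and 1019, and those of VA-ES-BJ 292, 418, 619 and 553. The taurolidine arrays were higher in every line, least clearly in SK-LMS-1, where the untreated array came close. The difference was 0.60 ± 0.15 (adjusted p = 0.0182). Probes for a copy so like RPL10 may also read its partner's mRNA, which was not tested.

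The other 4 genes that passed were RPS9 (0.32 ± 0.10, adjusted p = 0.0323), RPL12 (0.30 ± 0.09, adjusted p = 0.0393), RPS28 (0.28 ± 0.09, adjusted p = 0.0431) and RPL14 (0.26 ± 0.08, adjusted p = 0.0308), and each was higher in all 3 lines. RPS9 belongs to the small subunit, as does RPS28, and RPL12 lies at the base of the stalk that recruits elongation factors. RPL3, at the peptidyl transferase centre, had a similar difference of 0.26 ± 0.09 and did not pass (adjusted p = 0.0546). When the array that stood apart was left out, the differences of the 8 genes were 0.31 to 0.70, and that of RPL3 was 0.33. These larger values follow in part from how that array was picked and are not support.

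Genes named for their roles lay in the same range without passing over all arrays. RPS6, the substrate of the S6 kinases, is typical: 58791 untreated, 61884 with TRAIL, 67509.6 with taurolidine and 74748 with both in A-204. It was 43955, 46245, 51789 and 51899 for SK-LMS-1 and 40629.9, 61566, 53659 and 53834.5 for VA-ES-BJ. Taurolidine arrays were the higher pair in A-204 and SK-LMS-1, while in VA-ES-BJ the TRAIL array was the highest. The difference of RPS6 was 0.18, that of RPL11 0.23 and that of the stalk protein RPLP1 0.21. Without the array that stood apart the differences were 0.25 for RPS6, 0.31 for RPL11 and 0.29 for RPLP1. These larger values follow in part from how that array was picked and are not support. RPLP2, the partner of RPLP1 in the stalk, was measured by a dim probe set (35.1 to 283).

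RPL22L1 and RPL7L1 were the genes whose difference lay below 0. RPL22L1 had -0.08 (adjusted p = 0.50), with -0.21 for SK-LMS-1 cells and 0.04 for VA-ES-BJ cells. The signal of RPL7L1, a protein of the RPL7 family, was 14344 untreated, 15187 with TRAIL, 12673 with taurolidine and 13524 with both in A-204, the line in which the taurolidine arrays were the lower pair. It was 14866, 14998, 14748 and 16001 for SK-LMS-1 and 14464, 18021, 16948 and 15698 for VA-ES-BJ, where the groups overlapped. Neither gene passed.

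Genes with and without the pyrimidine run at the start had like medians of the taurolidine difference. The median was 0.20 over the 41 genes with a run, 4 of which passed, and 0.21 over the 12 genes without one, 4 of which passed, where 16.6% of all genes passed as higher. Without the VA-ES-BJ array given TRAIL alone, 32 of the 41 and 11 of the 12 passed as higher, with medians of 0.29 and 0.31, where 16.1% of all genes did. No test was made between them.

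The single agents and the combination were then compared in turn, with 1 array of each per line. Against untreated cells, taurolidine gave 2 of 60 genes higher and 0 lower, RPL36 (0.56 ± 0.14, adjusted p = 0.0281) and RPS27L (0.44 ± 0.12, adjusted p = 0.0349), where 7.71% of all genes passed as higher and 11.5% as lower. The median of the 60 was 0.30, and 0.21, 0.25 and 0.42 in A-204, SK-LMS-1 and VA-ES-BJ, against -0.00 over all genes. RPL26L1 (0.46 ± 0.14, adjusted p = 0.0522) and RPL39L (0.42 ± 0.13, adjusted p = 0.0530) came next and did not pass. Leaving out the VA-ES-BJ array given TRAIL alone, which enters only the estimate of the spread here, gave 12 genes, where 18.5% of all genes passed.

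Both agents against untreated cells gave 3 of 60 genes higher and 0 lower, where 7.58% of all genes passed as higher and 11.3% as lower. These were RPL36 (0.63 ± 0.14, adjusted p = 0.0196), RPL26L1 (0.62 ± 0.14, adjusted p = 0.0196) and RPS27L (0.48 ± 0.12, adjusted p = 0.0277). The median was 0.33, and 0.35, 0.24 and 0.42 by line. Without the array that stood apart 32 genes passed, where 18.4% of all genes did. This comparison shares its untreated arrays with those of taurolidine alone and TRAIL alone.

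TRAIL alone gave 0 of 60 genes by limma (0% of all genes passed in either direction), and 1 gene at an unadjusted p under 0.05. The median of 0.23 came from VA-ES-BJ (0.66), since A-204 had 0.02 and SK-LMS-1 0.02. Without the VA-ES-BJ array given TRAIL alone the median was 0.06, with 0 genes passing (0% of all genes). The smallest p values were those of RPLP2 (-1.14 ± 0.44), RPS18 (0.33 ± 0.16) and RPS6 (0.25 ± 0.12), each with an adjusted p of 1.00.

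TRAIL added to taurolidine gave 0 of 60 genes (0% of all genes), and 0 at an unadjusted p under 0.05 by limma, with a median of 0.04. The array that stood apart is not used in this difference, and leaving it out of the fit left the count at 0 and the median at 0.04. A-204 had a median of 0.14, SK-LMS-1 one of -0.02 and VA-ES-BJ one of 0.00. In A-204 all 54 bright genes were higher with both agents than with taurolidine alone, by 0.06 to 0.36, a difference seen on 1 pair of arrays. RPL39L (-0.20 ± 0.13) and RPL26L1 (0.17 ± 0.14) had the smallest p among the genes not on the Y chromosome, and neither passed (adjusted p = 1.00).

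Taurolidine added to TRAIL gave 1 of 60 genes higher, RPL26L1 (0.52 ± 0.14, adjusted p = 0.0389), and 0 lower, where 6.5% of all genes passed as higher and 9.72% as lower. RPL36 (0.46 ± 0.14, adjusted p = 0.0593) and RPS27L (0.34 ± 0.12, adjusted p = 0.0833) came next. A-204 had a median of 0.34 and SK-LMS-1 one of 0.22, but that of VA-ES-BJ was -0.22, where the array given TRAIL alone is the one compared with. Without that array the median was 0.28, with 1 gene passing, where 9.82% of all genes did.

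The title of the series names synergy, and the departure from additivity (both agents plus untreated, minus each agent alone) addresses it. It passed for 0 of 60 genes by limma (0% of all genes), with 1 at an unadjusted p under 0.05, RPL39L (-0.42 ± 0.18, adjusted p = 1.00). The median was -0.19, and 0.13, -0.06 and -0.66 in A-204, SK-LMS-1 and VA-ES-BJ. Without the array that stood apart it was -0.02, with 0 genes passing.

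**Figure D3:**
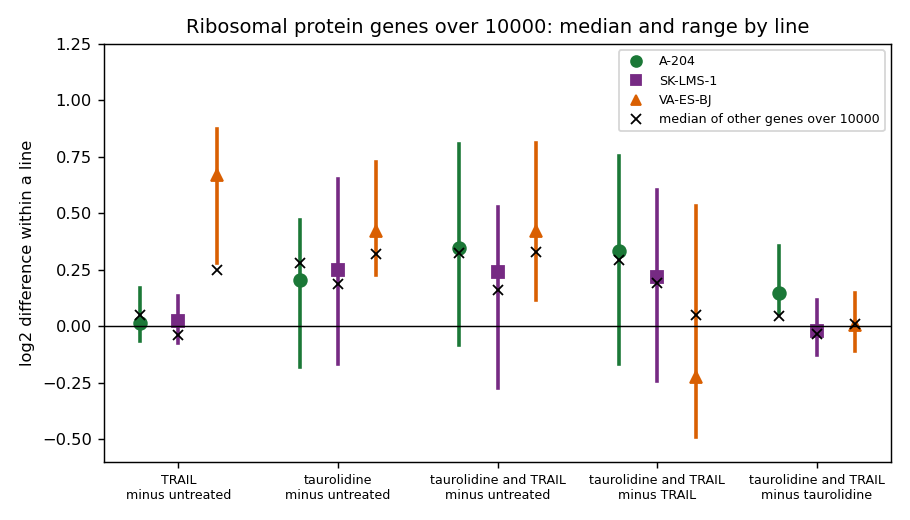
Log2 difference within each line for the 54 bright ribosomal protein genes (symbol, median; bar, lowest to highest gene) and the median of the other 1171 genes with a mean over 10000 (cross), for 5 pairs of treatments, 1 array each. TRAIL minus untreated is near 0 for A-204 and SK-LMS-1 but 0.67 for VA-ES-BJ, and taurolidine lies above untreated in every line.

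The lines differed in the level of the ribosomal protein genes. On the brightest probe sets, the largest differences among those that passed were those of paralogues. By limma's F test over the 3 lines, with the 4 treatments of a line standing in for replicates, 30 of 60 genes passed (50%), against 73.9% of all genes. With a difference of at least 2-fold between a pair of lines required as well, 2 genes passed (3.33%), RPL22L1 and RPL39L, against 42.8% of all genes. Other probe sets of the ribosomal protein genes were not tested between lines. Some, though not all, differed more than the brightest one. A dimmer one of RPS15A gave 1236 to 2143 in A-204 and 308 to 474 in SK-LMS-1, and one of RPL31 gave 2995 to 5187 and 932 to 1360. The mean signal was highest in A-204 for 56 of the 60. In pairs, SK-LMS-1 was lower than A-204 for 33 genes and higher for 0 (56.1% of all genes passed), and VA-ES-BJ was lower than A-204 for 20 and higher for 0 (56.4% passed). VA-ES-BJ was higher than SK-LMS-1 for 1 gene and lower for 3, where 56.9% passed. Without the array that stood apart 53 genes passed the F test, where 72% of all genes did, and with array medians set equal 11, where 73.1% did. In pairs without that array, SK-LMS-1 was lower than A-204 for 50 genes (55.9% of all genes passed), and VA-ES-BJ for 51 (53.4% passed). VA-ES-BJ was higher than SK-LMS-1 for 1 and lower for 6 (52.9% passed).

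RPL22L1, the paralogue of RPL22, differed most. Its signal in A-204 was 26291 untreated, 29576 with TRAIL, 24890.3 with taurolidine and 27752 with both. In VA-ES-BJ it was 22427, 30744, 27331 and 26872. The SK-LMS-1 arrays gave 10097, 9884, 8985 and 8345. All 4 SK-LMS-1 arrays were below all 8 others, by 1.54 ± 0.11 (adjusted p = 7.84e-06) against A-204, or 2.91-fold, while A-204 and VA-ES-BJ differed by 0.02. RPL22 itself, on its brightest probe set, had its lowest mean in SK-LMS-1 too, by the smaller margin the other genes showed. A dimmer probe set of RPL22 (mean 10888) gave another picture. It ran from 14274 to 19886 in A-204, from 7820 to 9306 in SK-LMS-1 and from 5842 to 8276 in VA-ES-BJ. How far RPL22 differed between lines thus depended on the probe set.

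RPL39L, a paralogue of RPL39 that lines the exit tunnel of the ribosome and is known from testis, ran from A-204 down to VA-ES-BJ. It was 2313 untreated, 2319 with TRAIL, 2889 with taurolidine and 2719 with both in A-204. SK-LMS-1 gave 1623, 2018, 2353 and 2212. VA-ES-BJ gave 994, 1249, 1333 and 982. All VA-ES-BJ arrays were below all others, by 1.17 ± 0.11 (adjusted p = 4.50e-05) against A-204, or 2.24-fold, and SK-LMS-1 overlapped A-204 but was lower by 0.32 ± 0.11 (adjusted p = 0.0356). RPL39 did not follow this order, with its mean in VA-ES-BJ above that in SK-LMS-1.

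RPL10L had its highest mean in SK-LMS-1 (912 ± 261, SD over the 4 treatments) and its lowest in VA-ES-BJ (470 ± 146). The difference was 0.94 ± 0.19 (adjusted p = 0.00294). RPL36 had a mean of 45559 in A-204, against 29143 for SK-LMS-1, a difference of 0.65. RPL36AL, an intronless copy of RPL36A, had a mean of 34109 in A-204 and of 33838 in SK-LMS-1, against 22433 for VA-ES-BJ, so that A-204 and SK-LMS-1 did not differ beyond their spread. Its start has a run of 15 pyrimidines, while RPL36A was measured by a dim probe set.

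**Figure D4:**
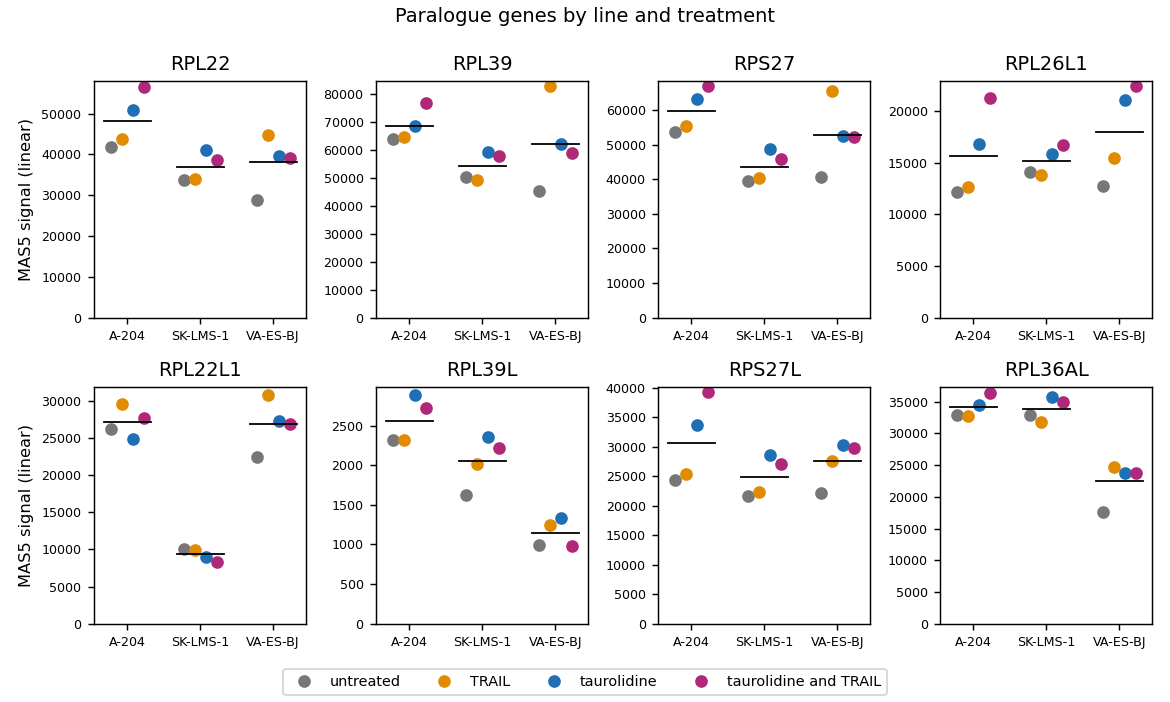
MAS5 signal (linear axes from 0, a scale of their own for each gene) of 8 genes on every array, by line and treatment, with the mean of the 4 arrays of a line as a bar. RPL22L1 is lowest in SK-LMS-1 and RPL39L in VA-ES-BJ, an order that the brightest probe sets of the partners RPL22 and RPL39 do not show to that extent.

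Whether the taurolidine difference was the same in the 3 lines was tested on 5 residual degrees of freedom. It differed for 0 of 60 genes by limma's F test, with or without the array that stood apart, against 1.43% of all genes, and 1 gene had an unadjusted p under 0.05. RPL36A had the smallest p, where A-204 had 0.92, SK-LMS-1 had 1.66 and VA-ES-BJ had -0.42 (adjusted p = 0.0668). Its dim signal was 104, 120.1, 183 and 268 on the A-204 arrays, 115, 164, 518 and 408 on those of SK-LMS-1 and 222, 206, 124 and 197 on those of VA-ES-BJ, in the order untreated, TRAIL, taurolidine and both. RPL26L1 (adjusted p = 0.312) and RPS27L (adjusted p = 0.592) did not pass.

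The 61 genes are covered by 122 probe sets, 34 genes by several and 27 by 1, and the probe sets not used above give another reading of the same genes. A fit over all 27105 single-gene probe sets, chosen after their values were seen, passed 7 of the 60 used above as higher, where 11.7% of all probe sets passed as higher and 18.9% as lower. Of 21 other probe sets with a mean over 10000, 7 were higher and 0 lower (median 0.23). Among them a second probe set of RPS9 rose by 0.62 ± 0.13 (adjusted p = 0.00995) and one of RPL14 by 0.37 ± 0.09 (adjusted p = 0.0202). Of 16 with a mean from 500 to 10000, 7 were higher and 1 lower, and of 15 dimmer ones 1 was higher and 1 lower. Without the VA-ES-BJ array given TRAIL alone, 41 of the 60, 17 of the 21, 6 of the 16 and 1 of the 15 were higher, where 10.6% of all probe sets were. With a line left out, 0 to 2 of the 60 and 0 to 1 of the 21 were higher, where 1.39% to 4.06% of all probe sets were. The share thus fell over all probe sets and not only for these genes. Of the pair named above, RPS9 passed only without VA-ES-BJ and RPL14 not at all.

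The lower ones belonged to RPL37A and RPS24. The dim probe set of RPL37A (mean 260) was 601, 290 and 503 in untreated A-204, SK-LMS-1 and VA-ES-BJ, 49.9, 52.2 and 6.68 with taurolidine, and 63.1, 117 and 62.4 with both. Every array with taurolidine lay below every array without it, with a difference of -2.91 ± 0.34 (adjusted p = 8.97e-04). The brightest probe set of RPL37A, from 44089 to 79123, had 0.16 and did not pass. The second probe set of RPS24 (mean 752) had -1.19 ± 0.31 (adjusted p = 0.0217), while its brightest one had 0.13. The difference of that second probe set was largest in A-204 (-2.33), against -0.51 in the SK-LMS-1 arrays and -0.72 for VA-ES-BJ. It was -0.62 without A-204 (adjusted p = 0.0479), -1.52 without SK-LMS-1 (adjusted p = 0.0567) and -1.42 without VA-ES-BJ (adjusted p = 0.0945). The RPL37A probe set was -3.44 to -2.46 with a line left out and passed each time. Which transcripts these dim probe sets read was not tested.

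**Figure D5:**
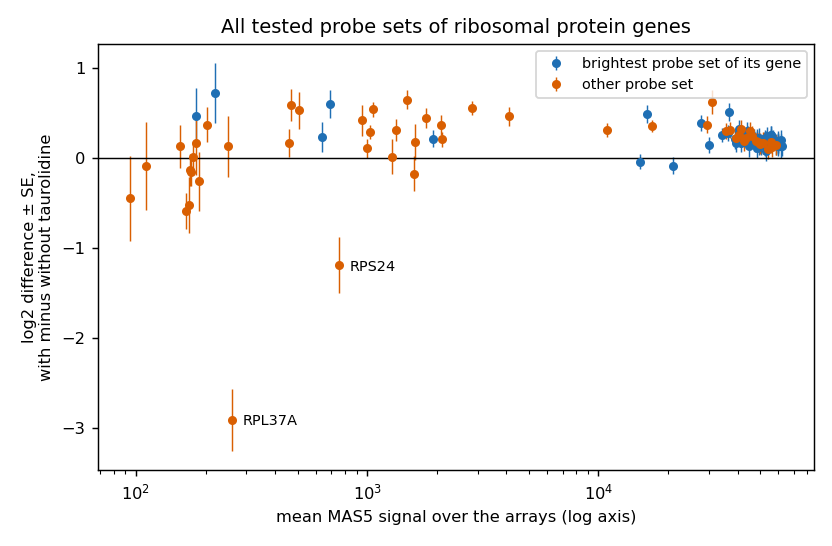
Log2 difference between arrays with and without taurolidine (± SE) against the mean MAS5 signal (log axis) for each tested probe set of the ribosomal protein genes, the brightest of each gene in blue and the others in orange. The bright probe sets lie together just above 0, and the dim probe sets of RPL37A (-2.91) and RPS24 (-1.19) lie far below.

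Genes that work with the ribosomal proteins were taken from lists, against 16.6% of all genes higher with taurolidine and 18.1% lower. Of 19 tested genes with TOP mRNAs outside the ribosome, 8 were higher with taurolidine and 0 lower, with a median of 0.26. Of the 1171 genes with a mean over 10000 outside the ribosomal protein genes, 499 were higher and 29 lower, with a median of 0.21. Such a rise was therefore not particular to TOP mRNAs. Without the array that stood apart 14 of the 19 were higher and 0 lower, where 16.1% of all genes were higher. The highest among those that passed were EEF1D (0.40 ± 0.08, adjusted p = 0.00658), a subunit of the elongation factor that reloads EEF1A, and the initiation factor subunits EIF3L (0.36) and EIF3H (0.36). FAU, which encodes the small subunit protein eS30, was higher by 0.34 ± 0.07 (adjusted p = 0.00971). Of 18 regulators of TOP mRNAs and the S6 kinases, 5 were higher, with TSC2 (0.62 ± 0.07) and EIF4EBP1 (0.52 ± 0.07), both brakes on mTOR-driven translation, and 4 lower, with LARP4 (-0.74 ± 0.13) and RPS6KB1 (-0.42 ± 0.08), the S6 kinase. With that array left out, 4 of the 18 were higher and 4 lower.

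Ribosome assembly genes moved both ways. Of 29 genes for import, chaperones and subunit assembly, 3 were higher and 7 lower with taurolidine (median -0.06), where 16.6% and 18.1% of all genes were. With the array that stood apart left out, 4 were higher and 6 lower. The largest falls were those of RRS1 (-1.17 ± 0.21, adjusted p = 0.00418), which brings the 5S particle into the large subunit, and LTV1 (-1.09 ± 0.18, adjusted p = 0.00313), a factor of the small subunit. BYSL (-0.68) and GRWD1 (-0.65), the chaperone of RPL3, also fell. In the short list of p53 and the 5S particle, which also holds RRS1, 1 of 6 tested genes was higher and 2 were lower. MDM2 fell by 1.00 ± 0.25 on the log2 scale (adjusted p = 0.0163), by little in SK-LMS-1 (-0.20). GTF3A, a transcription factor of the 5S rRNA gene, rose by 0.44 ± 0.08.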

How the data were processed

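From 4 to 5 µg of total RNA of each culture, labelled cRNA was prepared for 12 Affymetrix arrays, per the labels' protocols. The authors deposited linear intensity values made with MAS5, per the submitters' processing notes. Its version was not given in the sources used here. Trimmed of 2% at each end, the array means ran from 1000.117 to 1000.158, so the arrays share a scale and a difference is relative to it. The number of arrays limits the precision.

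Of 54675 probe sets, 41097 had 1 gene symbol in the platform annotation, 1801 had several and 11777 none listed. Genes were kept where the brightest probe set exceeded the table median of 137 on at least 3 arrays, which left 14221. Values were log2(intensity + 11.8), the constant being the table's 10th percentile, so differences of dim genes are understated. limma 3.58.1 in R 4.3.3 fitted treatment with line as a block over all 12 arrays (lmFit, eBayes, 6 residual degrees of freedom), with p-values adjusted by Benjamini-Hochberg over all genes. Lines were compared in the same fit. Replicate numbers pair the arrays because each number is a cell line, and deviations correlated at 0.86 to 0.91 within a line. The scripts were tested on simulated data.

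The members and gene lists were chosen with earlier results of these data known. Named are the paralogues and their partners, stalk genes, RPL11, RPS6, the 5 largest rises and falls per comparison among genes that passed in the same direction in all lines, or otherwise the 3 of smallest p, the 5 largest line differences, and at most 4 genes per list. Alternatives were scaling, constant, filter, choice of probe set, arrays fitted, block and leaving out lines. Levels of a Y-linked gene are not reported.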

Additional observations from a re-analysis of the deposited data

Results flagged for a closer look

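The taurolidine difference of the ribosomal protein genes in the presence of TRAIL pointed in opposite directions between lines. The median log2 difference between both agents and TRAIL alone was 0.336 for A-204 cells and 0.217 for SK-LMS-1 cells, but -0.217 for VA-ES-BJ cells. The median departure from additivity was 0.127 for A-204, against -0.0556 for SK-LMS-1 and -0.661 for VA-ES-BJ. The difference between lines was not tested for these medians, and each line has 1 array per treatment. Both VA-ES-BJ values rest on the array given TRAIL alone, and the departure from additivity also on the untreated array.

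Probe sets outside the main measurement gave signals that fell with taurolidine, unlike the brightest probe set of the same gene. That of RPL37A fell by 2.91 on the log2 scale, from at least 290 on arrays without taurolidine to at most 117 with it. That of RPS24 fell by 1.19, and by 0.62 without A-204.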

How the results depend on the processing

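The count of genes passing between arrays with and without taurolidine (8) was 53 with poly-A spikes equal (all lower, where 68.9% of all genes passed). It was 4 with no filter and 0 with no replicate block, that is, with lines not paired. It was 0 to 4 when each line was left out (0 without A-204, 1 without SK-LMS-1, 4 without VA-ES-BJ). In the fit over probe sets, 1.39% to 4.06% of all of them passed as higher with a line left out, against 11.7% over all arrays. The count was 49 without the VA-ES-BJ array given TRAIL alone (32.9% of all genes). Where no share of all genes is given, a change in these genes cannot be told from one over all genes. The median (0.21) reversed to -0.38 with spikes equal, moved to 0.036 under quantile normalisation, and was 0.17 to 0.25 with a line left out.

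For both agents against untreated (3) the count was 7 with the constant at the table median, 1 with spikes equal (lower, where 35.1% of all genes passed), 32 without the VA-ES-BJ array given TRAIL alone, and 0 with no replicate block, with only the 6 arrays compared, and without any 1 line (0 to 0). For taurolidine against untreated (2) it was 4, 5 (all lower, 57.8% of all genes) and 12 in the first 3 of these settings, 9 with array medians equal, and 0 with no filter, no replicate block, only the 6 arrays, or any 1 line left out. For taurolidine added to TRAIL (1) it was 2 with the constant at the table median, 30 with spikes equal (all lower, median -0.44, 44.7% of all genes), 4 with neither _x_at nor _s_at probe sets, and 0 with array medians equal, no filter, no replicate block, only the 6 arrays, or any 1 line left out.

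The count between lines (30) was 11 with array medians equal, 10 with spikes equal, 16 with neither _x_at nor _s_at probe sets, 17 with no filter, 18 under quantile normalisation, 53 without the array named above, and 4 to 47 with a line left out (4 without A-204, 10 without SK-LMS-1, 47 without VA-ES-BJ). For most of these settings the share of all genes is not given here, so a change over all genes cannot be told apart. The taurolidine difference that differs between lines passed for 1 gene with the constant at the table median. TRAIL against untreated, TRAIL added to taurolidine and departure from additivity stayed at 0 under all settings run.

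With spikes equal the taurolidine differences reversed to -0.29 for RPL12, -0.33 for RPL14, -0.10 for RPL26L1, -0.33 for RPL3, -0.078 for RPL36, -0.20 for RPS27L, -0.31 for RPS28 and -0.27 for RPS9. RPL14 was -0.26 on its probe set that is neither _x_at nor _s_at, and RPL7L1 was 0.028 without A-204. Among single genes 43 results were weaker, 6 stronger and 127 kept direction and side of the threshold. The causes were not tested. Probes of _x_at and _s_at type, which 44 of the genes rest on, may read related transcripts, pseudogenes included. Bright probe sets may be near saturation, which was not tested.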

Other observations

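Genes of neighbouring processes were measured on the same arrays. Of 7 tested snoRNA host genes, whose spliced RNAs also carry TOP starts, 3 were higher with taurolidine, EPB41L4A-AS1 (0.68 ± 0.08 on the log2 scale), ZFAS1 (0.53 ± 0.09) and SNHG32 (0.44 ± 0.09). TAF1D was lower (-0.76 ± 0.17). Of 10 genes of ribosome quality control, HBS1L was higher (0.23 ± 0.07), and 3 were lower, PELO (-0.80 ± 0.09), which rescues stalled ribosomes with HBS1L, and NEMF (-0.47 ± 0.12) and LTN1 (-0.31 ± 0.07), which act on the stranded large subunit. Of 75 mitochondrial ribosomal protein genes, 34 were higher and 3 lower, with a median of 0.18. Over all genes, 16.6% passed as higher and 18.1% as lower. Of the 1171 genes with a mean over 10000 outside the cytosolic ribosomal protein genes, 499 were higher and 29 lower. Without the VA-ES-BJ array given TRAIL alone, 3 of the snoRNA host genes were higher and 1 lower, 1 and 3 of the quality control genes, and 30 and 3 of the mitochondrial ribosomal protein genes, where 16.1% and 16.8% of all genes were.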
